A study of Mus musculus with 50 samples.

Results

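The TRIM genes are the rows of the count table whose symbol is Trim followed by a digit, leaving out Trim28. They number 55 of 16614 rows, and 48 of them passed the low-count filter used for testing, which kept 15029 genes. The choice of members rests on their symbols and uses no measured value. TRIM proteins are named for a tripartite motif of a RING finger, B-box zinc fingers and a coiled coil. The RING finger recruits an E2 enzyme that carries ubiquitin, and the C-terminal domain, which differs between subgroups, usually selects the substrate. Many TRIM proteins tune antiviral and NF-kappaB signalling, and others act on chromatin, microtubules, membranes or RNA. In oocyte work the best known member is TRIM21, an antibody receptor used as a tool for acute protein depletion.

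The data come from single mouse oocytes at the germinal vesicle stage, that is, in meiotic prophase arrest. ZFP36L2, the targeted protein, recognises AU-rich stretches near the 3′ ends of mRNAs and speeds their decay. Oocytes labelled knockout came from females with a conditional knockout of Zfp36l2 (cKO-Zfp36l2), and control oocytes came from floxed females (F/F-). Both groups were 5 weeks old and had received 10 IU of PMSG, a gonadotrophin that makes follicles grow, 46 hours before collection. Oocytes were taken inside their cumulus cells into medium with 5 µM milrinone, which holds the arrest, after which the cumulus cells and the zona pellucida were stripped off. The sources used here do not give the driver of the recombinase, the deleted stretch of the gene or the strain.

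The 50 oocytes were 26 floxed cells from 4 mice (5, 7, 7 and 7 oocytes) and 24 knockout cells from 4 mice (1, 7, 8 and 8 oocytes). Counts were summed per mouse, the replicate, and levels are given as CPM, a mouse's count of a gene scaled to a common total, so they are relative. Totals were 1746007 to 6233840 counts per oocyte and 4332108 to 44498770 per mouse, the lowest being knockout mouse 1 with its single oocyte. Zfp36l2 itself was at 1.96 to 4.17 CPM in floxed and 1.06 to 2.77 CPM in knockout mice (edgeR adjusted p = 0.208), so its summed count does not check the labels. All 14 oocyte marker genes were in the table, at a summed 5742 to 7117 CPM in floxed and 5748 to 6668 CPM in knockout mice, with 1 called higher (Figla) and 1 lower (Mos). Of 15 cumulus and granulosa markers 12 were in the table, and they summed to 162 to 234 and 163 to 297 CPM. Of 7 blood, immune and endothelial markers 3 were in the table, at a summed 96.3 to 186 CPM in floxed and 22.3 to 41.8 CPM in knockout mice, nearly all of it Pecam1, which was called lower. The part of these markers in the results was not tested. Mouse 1 of each genotype stood apart from mice 2 to 4 for many genes, as given for the TRIM genes further on, and all 16 TRIM calls were also made without both of these mice. That setting added Trim39 and Trim59 as higher and Trim27, Trim36, Trim37 and Trim68 as lower, giving 10 higher and 12 lower.

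Since ZFP36L2 recognises AU-rich stretches, the annotated 3′ untranslated regions of the members were searched for the letters TATTTAT on the transcript strand (RefSeq-matched GENCODE transcripts, mm10). The motif was present in 9 of the 48 tested members, or 18.8%, and in 27.7% of the 13803 tested genes with such a region. It was found in 0 of the 8 TRIM genes that were higher in knockout oocytes, in 2 of the 8 that were lower and in 7 of the 32 that were not called. The median region was 1062.5, 735 and 1503.5 bases long in these sets, and 1003 bases over all tested genes. Among all tested genes the motif was in 32.0% of those higher and 25.01% of those lower in knockout oocytes. The sites of the lower pair, Trim44 at chr2:102302871-102302897 and Trim30d at chr7:104471376-104471402, both on the minus strand, are shown with the motif in capitals, beside sites of 3 members that were not called. These are Trim71 at chr9:114509214-114509240 (minus strand), Trim11 at chr11:58991405-58991431 (plus strand) and Trim3 at chr7:105610878-105610904 (minus strand). They are examples from the 7 not called that hold the motif. Trim3 holds 2 sites, of which 1 is shown, and among those not shown Trim33 and Trim37 hold 2 each and Trim36 holds 3.
Trim44: gtaggagtccTATTTATgtcattgttc
Trim30d: cctctgtgaaTATTTATgaatagtatg
Trim71: tgccaaaatgTATTTATttagaacatc
Trim11: ttttatcttcTATTTATtgaaagggaa
Trim3: ggttgcacttTATTTATtcggttcttg
The flanks of the 5 sites differ, and in Trim71 the motif runs on into a further tta. A match of these letters is a description and not a binding site.

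The TRIM transcripts of these oocytes came largely from a handful of genes. Per kilobase of transcript, Trim61 had the highest level, 301 ± 21.4 CPM per kb in floxed and 280.2 ± 8.94 in knockout oocytes (mean ± SD, n = 4 mice each). Trim13, a ligase of the endoplasmic reticulum membrane that takes part in disposal of misfolded proteins, followed at 180 ± 6.99 and 156 ± 3.67 CPM per kb. Trim60 was at 185 ± 20.6 and 141 ± 6.44, and in floxed oocytes it lay within the spread of Trim13. Trim75 came next, at 127 ± 11.5 and 126 ± 11.03 CPM per kb. Trim24, a chromatin reader and coregulator of nuclear receptors, was at 71.9 ± 5.81 and 54.6 ± 3.46. Trim26, a ligase of innate signalling, was at 40.9 ± 4.97 and 60.5 ± 13.5, and in knockout oocytes these neighbours overlapped. At the other end, 7 members were too low to test: Trim14, Trim16, Trim21, Trim34a, Trim65, Trim69 and Trim9.

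Trim61, Trim60 and Trim75 lie together on the minus strand of chromosome 8 within 64980884 to 65018584 (mm10), with Trim61 inside the span of Trim60. Together they made up 41.2 ± 3.06% of all TRIM counts in floxed and 38.6 ± 1.62% in knockout mice. All TRIM rows summed to 3657, 3607, 3655 and 3713 CPM in the 4 floxed mice and to 3503, 3484, 3498 and 3450 CPM in the 4 knockout mice. The summed level was thus lower in each knockout mouse than in any floxed mouse, with means of 3483 and 3658 CPM. A few abundant members weigh most in it: Trim60 fell from a mean of 494 to 377 CPM and Trim24 from 291 to 221 CPM, while Trim26 rose from 131 to 193 CPM. Calls of single members went both ways, 8 higher and 8 lower, so the sum does not show a fall across the family. The sum was not tested. The level of Trim61 needs care, because over the pooled floxed oocytes its counts grew less than in proportion to an oocyte's total. Across floxed oocytes, log2 count rose on log2 total with a slope of 0.52 for Trim61. The slope was 1.00 for Trim60, 0.93 for Trim13 and 0.93 for Trim75. Fitted slopes of other members were further from 1, with 0.20 for Trim71, 1.88 for Trim23 and 2.42 for Trim59. These lines pool the 26 floxed oocytes with no term for mouse, so differences between mice enter them. Trim71, for example, was at 222, 189, 108 and 127 CPM in floxed mice 1 to 4. The slopes therefore do not show by themselves how a count follows the depth of an oocyte. The median slope was 0.48 over the 182 tested genes with at least 0.8 counts per transcript base, Trim61 and Trim60 among them. It was 1.115 for genes under 0.05 counts per base, which include Trim23. From 0.05 to 0.2, where Trim59 and Trim71 lie, it was 1.23, and from 0.2 to 0.8 it was 0.90. Whether such slopes alter the fold changes of these members was not tested.

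**Figure D1:**
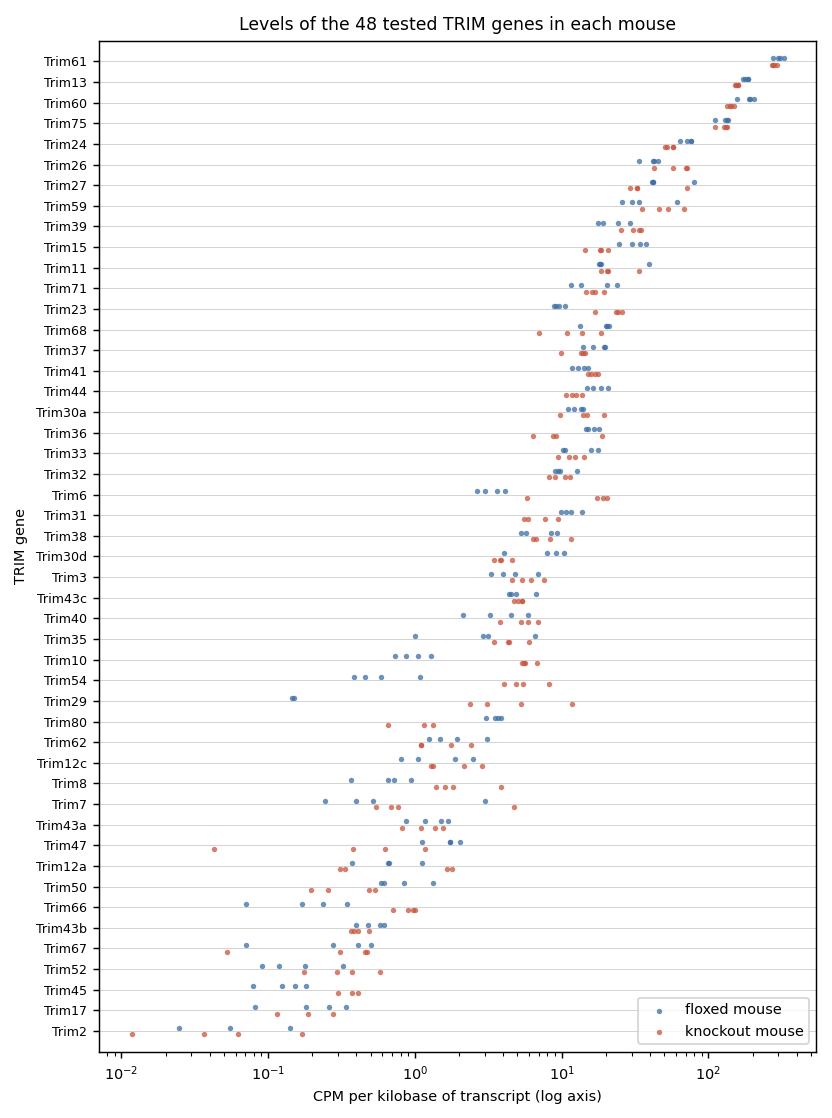
Level of each of the 48 tested TRIM genes in CPM per kilobase of transcript (log axis), one point per mouse. Floxed and knockout mice are in different colours, and genes are ordered by mean level. Trim61, Trim13, Trim60 and Trim75 lead the order, and a mouse at 0 counts is not drawn.

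Comparing knockout with floxed mice, 16 of the 48 tested members passed the edgeR quasi-likelihood test at an adjusted p under 0.05, 8 higher and 8 lower in knockout oocytes. This is 33.3% of members, where 27.6% of all tested genes were called, 14.4% higher and 13.2% lower. The median log2 fold change of the members was -0.04, and that of all tested genes was -0.0059. The 4 knockout mice lay wholly above the 4 floxed mice for 7 members and wholly below for 8, where the groups did not overlap for 31% of all tested genes (16% above and 15% below). At least a 2-fold change was seen in 7 of the 8 higher members and 2 of the 8 lower ones, where it was seen in 1306 of 2164 higher and 1036 of 1984 lower genes overall. Among the 20 members with a mean under 10 CPM, 5 were higher and 1 lower, and among the 28 at 10 CPM or more, 3 were higher and 7 lower. Over all tested genes these were 667 higher and 554 lower of 5325 under 10 CPM, and 1497 higher and 1430 lower of 9704 at 10 CPM or more. The number lower depended on single floxed mice, being 4, 5 and 4 without floxed mouse 2, 3 and 4.

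**Figure D2:**
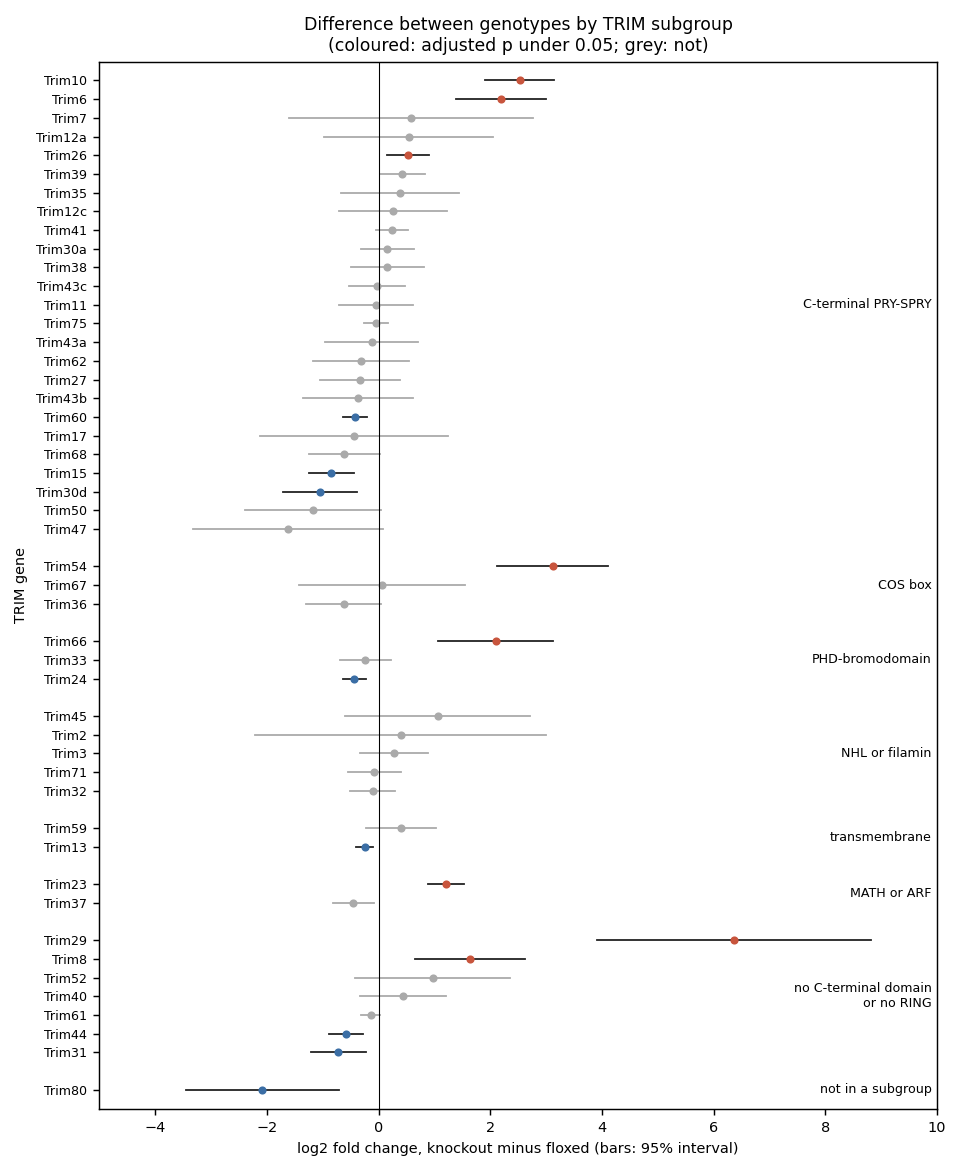
Log2 fold change, knockout against floxed, with its 95% interval for the 48 tested TRIM genes, coloured by call. Of the 8 members called higher, 7 are at least 2-fold from no change, as are 2 of the 8 called lower.

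Members with a C-terminal PRY-SPRY domain, the substrate-binding module of many antiviral TRIM proteins, were the largest subgroup. Of 25 tested, 3 were higher (Trim10, Trim6 and Trim26), 3 were lower (Trim60, Trim15 and Trim30d) and 19 were not called. This is 24% called, where 27.6% of all tested genes were called. No test set this or the smaller subgroups below against other genes. Trim10, known from terminal erythroid differentiation, was at 2.35, 1.96, 2.87 and 1.64 CPM in floxed mice and at 12.003, 15.1, 12.4 and 12.7 CPM in knockout mice. Every knockout mouse was several times above the highest floxed mouse. The fitted log2 change, knockout against floxed, was 2.53 (SE 0.28, 5.76-fold, edgeR adjusted p = 0.000435), the smallest p among the members. In single oocytes, 19 of 24 knockout cells exceeded all 26 floxed cells.

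Trim6, which builds unanchored ubiquitin chains that activate the kinase IKKepsilon in interferon signalling, was at 11.5, 10.2, 13.98 and 15.7 CPM in floxed and 22.2, 72.8, 66.8 and 78.0 CPM in knockout mice. The groups did not overlap, and knockout mouse 1, with 1 oocyte, stood nearer to the floxed mice than the other 3. The fitted log2 change was 2.19 (SE 0.36, 4.56-fold, edgeR adjusted p = 0.00264). Between oocytes of a mouse, its SD of log2(CPM + 1) was 1.43 in floxed (4 mice) and 0.59 in knockout oocytes (3 mice). The median count per oocyte was 36 in floxed and 307.5 in knockout oocytes, and the part of level in this spread was not tested. Trim26 was at 108, 135, 136 and 144 CPM in floxed and 135.5, 185, 226 and 227 CPM in knockout mice. Knockout mouse 1 fell among the floxed mice, and the other 3 were above them. The change was 0.52 (SE 0.17, 1.44-fold, edgeR adjusted p = 0.0438), and it did not pass without floxed mouse 1, 2, 3 or 4 or knockout mouse 2, 3 or 4.

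Of the lower members of this subgroup, Trim15, a component of focal adhesions, was at 45.1, 55.8, 69.6 and 62.6 CPM in floxed mice and at 26.8, 33.6, 34.4 and 38.4 CPM in knockout mice. The groups did not overlap, and the fitted log2 change was -0.85 (SE 0.18, 1.80-fold lower, edgeR adjusted p = 0.00825). Trim60 was at 416, 513, 502 and 545 CPM in floxed and 356, 374, 397 and 382 CPM in knockout mice. All knockout values were below the lowest floxed value, though the gap was small next to the level, with a log2 fold change of -0.43 (SE 0.10, 1.35-fold lower, edgeR adjusted p = 0.011). Its neighbour Trim61 was at 590, 645, 543 and 606 against 551, 579, 539 and 546 CPM, and the ranges overlapped (log2 fold change -0.14, 95% interval -0.31 to 0.02). Trim75, next to both, was at 416 ± 37.6 and 413 ± 36.1 CPM. These genes share little sequence: 0.763% of the 50-base words of Trim60 also occur in Trim61, and their exons overlap over 2.47% of Trim60.

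Trim30d, a relative of Trim30a, which restrains signalling from Toll-like receptors, was at 13.3, 26.2, 34.2 and 29.9 CPM in floxed and 12.7, 12.6, 15.01 and 11.3 CPM in knockout mice. Floxed mouse 1 lay inside the knockout range and the other 3 floxed mice were above it. The fitted log2 change was -1.05 (SE 0.30, 2.08-fold lower, edgeR adjusted p = 0.027), and the call was lost without floxed mouse 2, 3 or 4 or knockout mouse 2 or 4, and with equal weight of oocytes. Trim30a itself was at 47.6 ± 5.11 and 54.8 ± 14.95 CPM and was not called, and 6.53% of its 50-base words also occur in Trim30d.

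**Figure D3:**
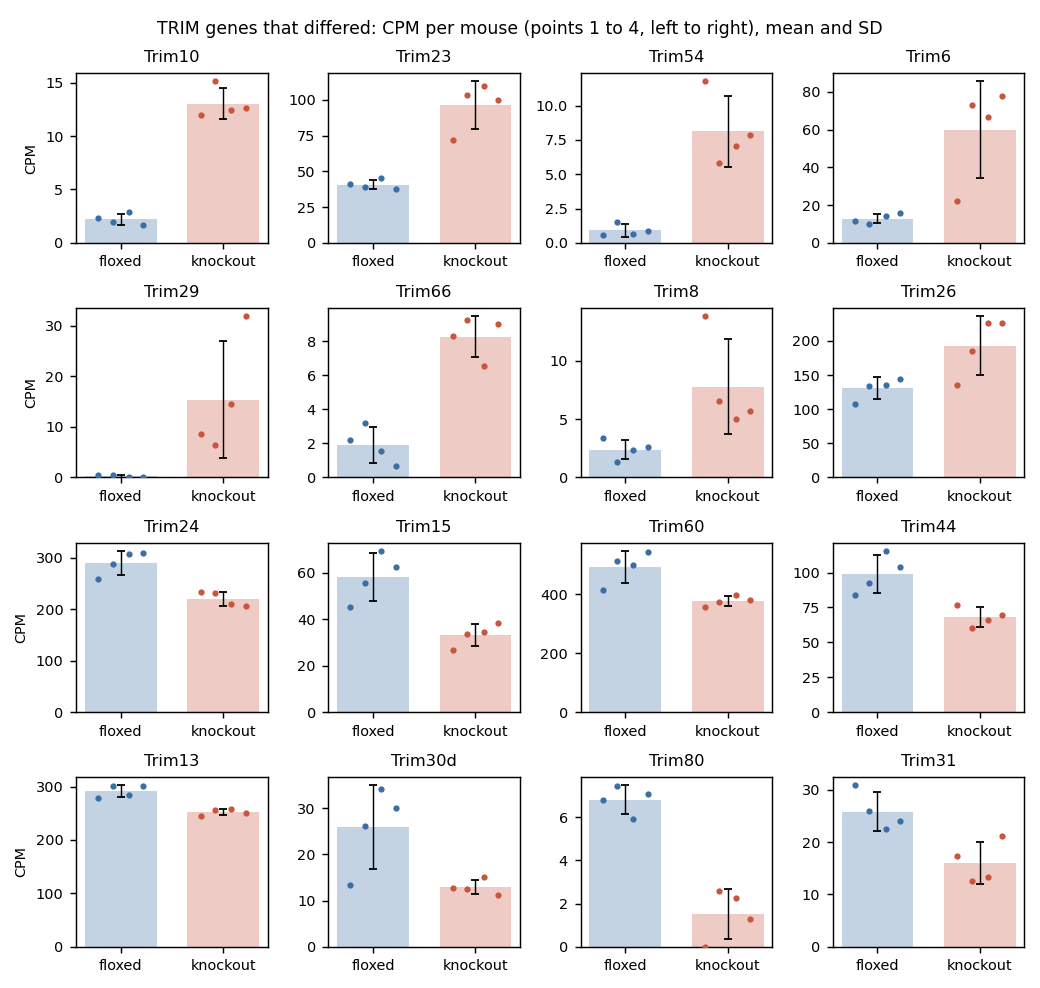
CPM per mouse on a linear axis for the 16 TRIM genes called, one point per mouse, floxed and knockout side by side. Bars show the mean and error bars the SD. The groups are separate in 14 of the genes, and in Trim30d and Trim26 they overlap by mouse 1.

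Among the members that bind microtubules through a COS box, 1 of 3 tested was higher and 0 was lower. This is 33.3% called of very few genes, against 27.6% of all tested genes. At an unadjusted p under 0.05, edgeR had 0 lower, and DESeq2 and limma also called 0. The higher one was Trim54, a muscle protein that stabilises microtubules. It was at 0.551, 1.55, 0.652 and 0.837 CPM in floxed and 11.8, 5.81, 7.06 and 7.83 CPM in knockout mice. The lowest knockout mouse was more than 3-fold above the highest floxed mouse, and the fitted log2 change was 3.12 (SE 0.44, 8.67-fold, edgeR adjusted p = 0.00141). In single oocytes 21 of 24 knockout cells exceeded all 26 floxed cells. An antisense transcript, Gm15469, covers 26.6% of the exon bases of Trim54, and the kit does not mark strand, so reads of the pair cannot be told apart there.

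The other COS box member with a sizeable level, Trim36, known from the sperm acrosome, was not called. Its levels were 75.8, 66.5, 82.1 and 68.5 CPM in floxed and 86.1, 41.4, 39.8 and 29.2 CPM in knockout mice. Knockout mouse 1 was above every floxed mouse and the other 3 knockout mice were below all of them. The log2 fold change was -0.63 over all mice (95% interval -1.30 to 0.04), and -1.08 without knockout mouse 1 (edgeR adjusted p = 0.0012).

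All 3 members of the TIF1 group, which carry a PHD finger and a bromodomain and act on chromatin, were tested (Trim28 is left out), and 1 was higher, 1 lower and 1 not called. Over all tested genes 14.4% were higher and 13.2% lower, and 3 members are too few to set against these shares. Trim24 was at 259, 288, 307 and 309 CPM in floxed mice and 233, 232, 211 and 206 CPM in knockout mice. The groups did not overlap, and the fitted log2 change was -0.44 (SE 0.09, 1.36-fold lower, edgeR adjusted p = 0.00785). Trim66, best known from testis, was at 2.20, 3.18, 1.57 and 0.651 CPM in floxed and 8.31, 9.23, 6.54 and 9.01 CPM in knockout mice. Its fitted log2 change was 2.09 (SE 0.46, 4.27-fold, edgeR adjusted p = 0.00922), with no overlap. In single oocytes it was uneven: 18 of 26 floxed and 18 of 24 knockout cells had a count, and 11 knockout cells exceeded all floxed cells. Trim33, a ligase that restrains SMAD signalling, was at 121 ± 33.3 and 105 ± 17.7 CPM and was not called.

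Of the members with NHL or filamin repeats, 0 of 5 tested was called in either direction by edgeR, 0 had an unadjusted p under 0.05, and DESeq2 and limma also called 0. With 27.6% of all tested genes called, 5 members are too few to read the 0 as a trait of the subgroup. They include Trim71, the mouse form of LIN41, a regulator of mRNAs in stem cells. Trim71 was at 222, 189, 108 and 127 CPM in floxed and 181, 150.5, 137 and 158 CPM in knockout mice, so the knockout values lay inside the floxed range. Its 95% interval was -0.55 to 0.39 on the log2 scale. The others were Trim32 (32.7 ± 5.37 and 31.2 ± 4.54 CPM), Trim3 (14.3 ± 4.69 and 17.9 ± 3.86), and Trim45 and Trim2, whose means were at most 1.25 CPM.

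The subgroup of a MATH or an ARF-like domain holds Trim37 and Trim23. Trim23, whose C-terminus is a small GTPase and which is known from antiviral autophagy, was at 41.0, 39.0, 45.1 and 37.7 CPM in floxed mice. In knockout mice it was at 72.3, 104, 109.7 and 99.98 CPM, so the groups were far apart and knockout mouse 1 was the lowest of its group. The fitted log2 change was 1.21 (SE 0.15, 2.31-fold, edgeR adjusted p = 0.000735). It was the member that separated single oocytes fully. All 24 knockout cells, at 59.1 to 155 CPM, exceeded all 26 floxed cells, at 6.87 to 55.7 CPM. The lowest floxed value was in the oocyte with the lowest total, 1746007 counts, and the slope of Trim23 on oocyte total was 1.88 over the pooled floxed oocytes. The share of all tested genes that separate the oocytes fully was not computed. Trim37, which controls centrosome assembly and peroxisomes, was at 97.6 ± 15.2 and 73.1 ± 11.98 CPM and missed the threshold (edgeR adjusted p = 0.0644). DESeq2 called it lower (adjusted p = 0.0294).

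The pair with a transmembrane segment had 1 lower member, where 13.2% of all tested genes were lower. Trim13 was at 278, 301, 285 and 301 CPM in floxed and 245, 257, 257 and 250.5 CPM in knockout mice. The ranges did not overlap, and the fall was the smallest among the calls, at -0.25 on the log2 scale (SE 0.07, 1.19-fold lower, edgeR adjusted p = 0.0247). The call was lost without floxed mouse 2 or 4 and with equal weight of oocytes, and 14.5% of its 50-base words also occur in a gene model, Gm9359. Trim59 was at 178, 75.2, 99.3 and 88.2 against 199.7, 157, 136 and 103 CPM, with mouse 1 the highest of each group, and was not called. It was called higher without floxed mouse 1 (edgeR adjusted p = 0.0331), and without mouse 1 of both genotypes (edgeR adjusted p = 0.0242).

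Members with no RING finger or no named C-terminal domain gave 4 calls in 7 tested, 2 in each direction. This is 57.1%, where 27.6% of all tested genes were called, and with 7 members the difference was not tested. Trim29, which lacks a RING finger and restrains innate responses in macrophages of the airways, was at 0.401, 0.408, 0 and 0 CPM in floxed and 8.54, 6.46, 14.5 and 31.9 CPM in knockout mice. A mouse at 0 allows up to 0.0782 and 0.093 CPM in floxed mice 3 and 4, counting 3 reads of the total. The fitted log2 change was 6.36 (SE 1.10, edgeR adjusted p = 0.00322). These sums rest on few cells: 2 of 26 floxed and 9 of 24 knockout oocytes had any count, at least 1 in each knockout mouse. A pair of oocytes held 60.0% of the 2260 knockout counts. With equal weight of oocytes, the difference in mean log2(CPM + 1) was 1.72. On that scale the log and the added 1 shrink a gene at 0 in most oocytes, so 1.72 and 6.36 are not like measures.

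Trim8, a modulator of cytokine signalling through SOCS1, was at 3.36, 1.31, 2.35 and 2.57 CPM in floxed and 13.9, 6.54, 5.01 and 5.72 CPM in knockout mice. Knockout mouse 1 was the highest, and the groups did not overlap (log2 fold change 1.64, SE 0.44, 3.12-fold, edgeR adjusted p = 0.0219). The call was lost without floxed mouse 2, 3 or 4. Trim44, which carries a zinc finger of the kind found in deubiquitinases in place of a RING finger, was at 84.1, 92.5, 116 and 104 CPM in floxed and 77.1, 60.1, 66.0 and 69.8 CPM in knockout mice. The groups did not overlap (log2 fold change -0.58, SE 0.14, 1.497-fold lower, edgeR adjusted p = 0.013), and the call was lost with equal weight of oocytes. Trim31, a ligase that promotes signalling by the mitochondrial adaptor MAVS, was at 30.9, 26.0, 22.5 and 24.1 against 17.3, 12.5, 13.3 and 21.2 CPM. Its groups also did not overlap, by a narrow gap (log2 fold change -0.72, SE 0.22, 1.65-fold lower, edgeR adjusted p = 0.0372). That call was lost under 7 of the 15 alternatives: without any single mouse but knockout mouse 1 or 4, and without the oocytes numbered 8.

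Trim80, which was in none of the subgroups, was at 6.81, 7.47, 5.92 and 7.10 CPM in floxed and 0, 2.57, 2.25 and 1.27 CPM in knockout mice. All knockout mice were below all floxed mice, and a count of 0 in knockout mouse 1 allows up to 0.693 CPM. The fitted log2 change was -2.08 (SE 0.61, 4.24-fold lower, edgeR adjusted p = 0.0318), the steepest fall among the called members. The call was lost without floxed mouse 2, 3 or 4 or knockout mouse 3 or 4. A count was present in all 26 floxed and in 17 of 24 knockout oocytes. Its neighbour on chromosome 11, Trim47, was at 3.81, 4.49, 3.81 and 2.48 CPM in floxed and 1.39, 2.60, 0.831 and 0.0941 CPM in knockout mice, and did not pass (edgeR adjusted p = 0.143).

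Single oocytes each held most of the family. A floxed oocyte had a count for 38 to 49 of the 55 members (median 45), and a knockout oocyte for 41 to 48 (median 44). Over mice the means were 44.9 ± 1.37 and 44.7 ± 0.747 (SD, n = 4 each), and 44.1 and 43.8 after thinning each oocyte to 3000000 counts, which left out 3 shallower floxed oocytes. Several abundant members varied little between oocytes of a mouse. The SD of log2(CPM + 1) was 0.08 and 0.14 for Trim75 (floxed and knockout), 0.10 and 0.12 for Trim60, and 0.11 and 0.14 for Trim13. It was 1.41 and 1.35 for Trim35 and 1.02 and 1.39 for Trim38, members with means between 10.6 and 16.6 CPM, so oocytes of 1 mouse differed widely in these. Besides Trim23, the members whose knockout oocytes most often exceeded all floxed oocytes were Trim54 (21 of 24), Trim26 (20), Trim10 (19) and Trim6 (16). On the low side, Trim27 led with 17 knockout oocytes below all floxed ones, followed by Trim80 with 14 and Trim15 with 13. Oocytes of a mouse are not replicates of a genotype, so these counts carry no test. For such counts, here and above, the share over all tested genes was not computed.

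**Figure D4:**
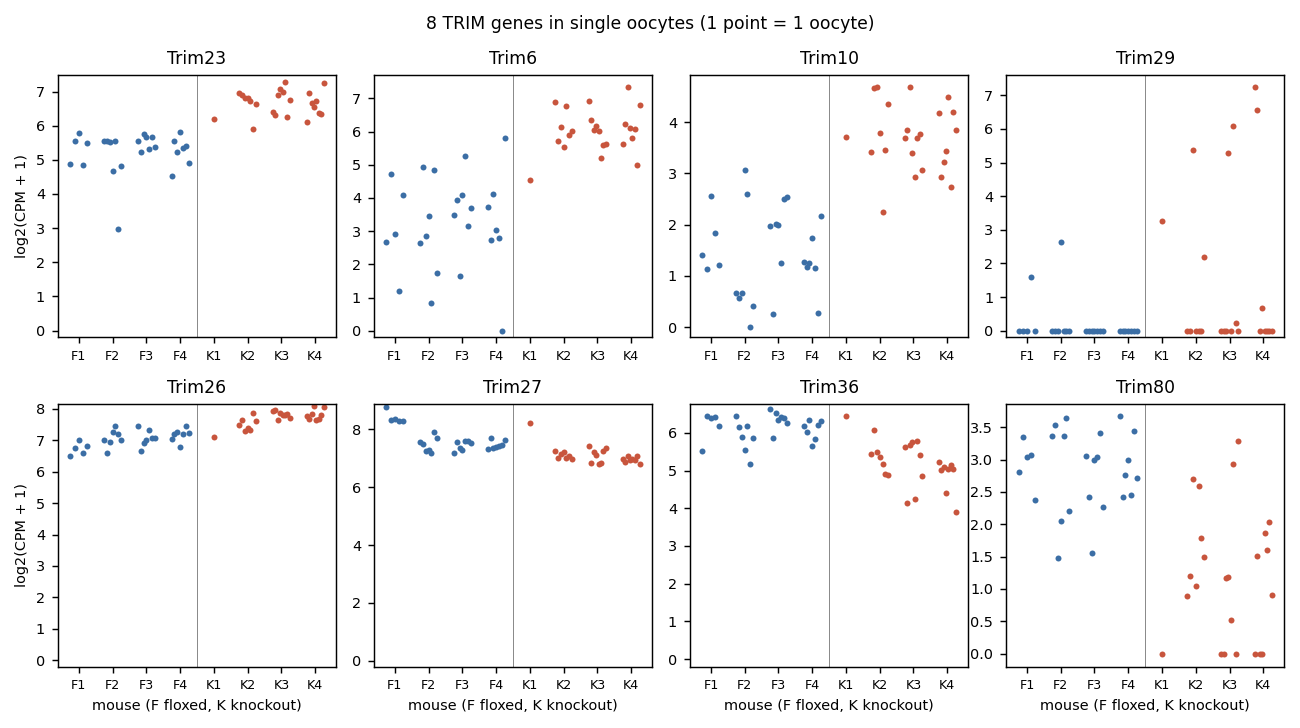
Level in each oocyte as log2(CPM + 1) for 8 TRIM genes, one point per oocyte, grouped by mouse (F floxed, K knockout, numbered 1 to 4). All knockout oocytes lie above all floxed oocytes for Trim23, and Trim29 is at 0 in most oocytes of both genotypes.

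Mouse 1 lay outside the range of mice 2 to 4 on the same side in both genotypes for 17 of the 48 tested members. It was above for 7 (Trim11, Trim27, Trim3, Trim59, Trim7, Trim71 and Trim8) and below for 10 (Trim12a, Trim13, Trim15, Trim26, Trim33, Trim37, Trim39, Trim60, Trim68 and Trim75). Over all tested genes the shares were 20.6% above and 21.8% below, so the members were near the background below and under it above. Trim27, a ligase that works with the WASH complex on endosomes, was at 334, 176, 172 and 175 CPM in floxed and 299, 137, 138 and 123 CPM in knockout mice. Mouse 1 of each genotype was about 2-fold above its group, and within mice 2 to 4 all knockout mice were below all floxed ones. Trim27 was not called over all mice (log2 fold change -0.34, 95% interval -1.05 to 0.38), and it was called lower without both mice numbered 1 (log2 fold change -0.48, edgeR adjusted p = 0.00113). Trim7, which binds glycogenin, was at 7.11 CPM in floxed mouse 1 and 11.1 CPM in knockout mouse 1, against 0.572 to 1.23 and 1.29 to 1.80 CPM in the others. The labels do not say what mice of the same number share, and the cause was not tested.

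**Figure D5:**
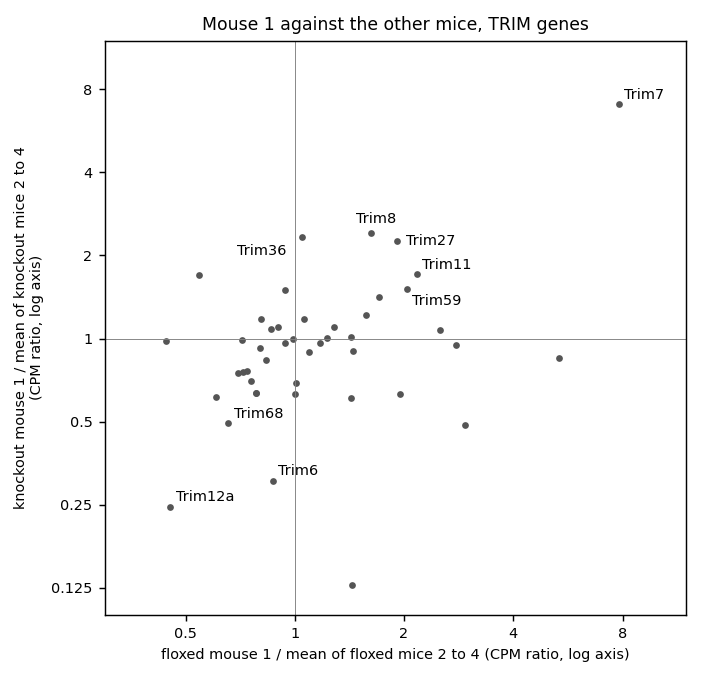
Ratio of mouse 1 to the mean of mice 2 to 4 in floxed (x axis) and knockout (y axis) mice, both log axes, one point for each of 45 tested TRIM genes, with 3 genes at 0 in knockout mouse 1 left out. Trim7 stands at 7.82 and 7.06, and Trim11, Trim27, Trim59 and Trim8 are also above 1 in both.

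Many TRIM genes sit in clusters, and calls within a cluster went both ways on chromosomes 17 and 7. On chromosome 17 (36258873 to 36910214), 6 members lie within 651 kb: Trim26 and Trim10 were higher, Trim15 and Trim31 lower, and Trim39 and Trim40 not called. Trim15 lies between Trim26 and Trim10 on the opposite strand. On chromosome 7 (104218793 to 104507849), Trim6 at one end was higher and Trim30d at the other lower, with Trim12a, Trim12c and Trim30a not called between them and Trim34a too low to test. On chromosome 9, Trim43a, Trim43b and Trim43c, members known from early embryos, were not called, at 1.17 to 10.2 CPM in floxed mice. These 3 are close copies, sharing 42.4% to 48.8% of their 50-base words with another gene, and Trim12a (31.2%), Trim12c (32.2%) and Trim34a (41.5%) are similar. The sources used here do not say how such reads were assigned, so the split within these sets is uncertain.

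The 7 members under the filter had means of at most 0.607 CPM in either genotype. Trim21, the antibody receptor, had a count in 5 of 26 floxed and 2 of 24 knockout oocytes, with means of 0.203 and 0.124 CPM. Trim34a and Trim69 had 0 counts in all floxed oocytes, which allows up to 0.0261 CPM over the group, and Trim9, a neuronal ligase, had 0 in all knockout oocytes, which allows up to 0.0239 CPM.

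Of 3 tested genes that belong to the family under other symbols, 1 rose, 1 fell and 1 was not called. Among all tested genes 27.6% were called, and 3 genes are too few to set against that share. Pml, the organiser of nuclear bodies, rose from 13.3 ± 2.91 to 25.1 ± 6.64 CPM (1.83-fold, edgeR adjusted p = 0.0336), and the call was lost without floxed mouse 2 or 4 or knockout mouse 1, 2 or 4. Mid1, a COS box ligase of microtubules, was at 15.1, 34.3, 30.9 and 40.1 CPM in floxed and 6.69, 0.263, 0.742 and 1.76 CPM in knockout mice. The groups did not overlap, and the fall was 16.6-fold (log2 fold change -4.05, SE 0.87, edgeR adjusted p = 0.00852), steeper than any fall among the called Trim members. Bspry was not called.

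Genes for ubiquitin and its E1 and E2 enzymes, with which TRIM ligases work, gave few calls: 3 of 40 tested were higher and 0 lower, or 7.5% against 27.6% of all genes. For the 0, edgeR had 2 lower at an unadjusted p under 0.05, DESeq2 called 2 and limma 0. The higher ones were Ube2q2 (45.1 ± 16.0 to 88.9 ± 5.84 CPM, edgeR adjusted p = 0.0108), Ube2e3 (60.1 ± 9.87 to 89.6 ± 7.18, adjusted p = 0.0185) and Ube2l3 (48.8 ± 4.82 to 66.9 ± 9.05, adjusted p = 0.0453). The call of Ube2e3 was lost without knockout mouse 2, and that of Ube2l3 without any single mouse but knockout mouse 1, and with no low-count filter. Of 27 tested genes of RNA and DNA sensing, NF-kappaB and interferon signalling, in which many TRIM proteins act, 9 were higher and 3 lower, or 44.4%, with a median log2 fold change of 0.43. Traf3, an adaptor between sensors and kinases, rose from 24.8 ± 3.12 to 66.5 ± 13.9 CPM (2.61-fold, edgeR adjusted p = 0.0012), and Ikbkg, the regulatory subunit of the IKK complex, from 5.37 ± 0.657 to 15.8 ± 3.38 CPM (2.88-fold, adjusted p = 0.0024). Mavs, the mitochondrial adaptor of RNA sensing, rose from 66.9 ± 6.63 to 98.8 ± 5.08 CPM (adjusted p = 0.0078). Ddx58, which encodes the RNA sensor RIG-I, fell from 69.3 ± 6.05 to 43.3 ± 3.27 CPM (adjusted p = 0.0037). No test set these lists against other genes.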

How the data were processed

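The authors deposited read counts per gene for all 50 oocytes in 1 table of 16614 rows, with no normalization and with whole-number values. STAR and the mm10 build are named per the submitters' processing notes. The STAR version and the counting tool, with its treatment of reads that match several genes, were not given in the sources used here. RNA was isolated in Trizol and turned into cDNA by the SMARTer Ultra Low Input method, per the labels' protocols. That kit uses PCR without molecular identifiers and leaves strand unmarked. PCR copies are not independent molecules, so limits at 0 counts cover counting error only.

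Columns were matched to samples by header name, or by title for oocyte 8 of 3 knockout mice. The counts of each mouse's oocytes were added up. The 4 knockout and 4 floxed sums were compared over all genes with edgeR 4.0.16 in R 4.3.3 (TMM, filterByExpr with a minimum count of 10, robust quasi-likelihood test, Benjamini-Hochberg adjusted p under 0.05 over 15029 genes). The standard error is the log2 fold change divided by the square root of F, and means ± SD are over mice. The labels do not say more of how the mice relate. The biological coefficient of variation was 35.4%. On simulated data of this comparison (14788 genes, 50 changed at each size), the test recovered 6% of genes changed 1.5-fold, 32% at 2-fold, 70% at 4-fold and 74% at 8-fold, with 9 false calls. Far fewer genes changed in the simulation than the 27.6% called in the data. The adjusted threshold was thus stricter there, and these shares are not the recovery rates of the real comparison.

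CPM, levels per kilobase and single-oocyte values were computed from the deposited counts; single-oocyte spread used log2(CPM + 1), averaged over mice with 3 or more oocytes. Coordinates, transcript lengths and 3′ untranslated regions (at least 20 bases) come from GENCODE annotation of mm10, matched by RefSeq accession for 16350 rows and by symbol for 186; all 55 members were matched. Shared sequence was measured as 50-base words of the transcripts. Alternatives were DESeq2 1.42.0, its size factors, no filter, a block by mouse number, leaving out mice or the oocytes numbered 8, and limma 3.58.1 with equal weight of oocytes. The limma setting used the mean log2(CPM + 1) of a mouse's oocytes, so its differences are not on the scale of the edgeR fold changes.

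The members, subgroups, lists and tests were chosen with earlier results of these data known. Genes were named by rule: called members in order of p, up to 20, the 6 with the highest level per kilobase, those under the filter, and up to 4 called genes of each other list. Trim27, Trim36, Trim37, Trim47, Trim59, Trim61, Trim7 and other members outside the rule were described after their values were seen.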

Additional observations from a re-analysis of the deposited data

Results flagged for a closer look

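In 7 of 96 groups of 4 mice (48 tested members in 2 genotypes), 1 mouse lay far from the other 3 by Dixon's test at the 95% level. Chance flags about 1 in 20 groups. All 7 were mouse 1. Trim27 was highest in floxed mouse 1 (333.9 CPM) and in knockout mouse 1 (299.4 CPM). Trim7 was highest in floxed mouse 1 (7.11 CPM) and in knockout mouse 1 (11.1 CPM), and Trim11 likewise (90.6 and 78.0 CPM). Trim68 was lowest in floxed mouse 1 (32.0 CPM). Knockout mouse 1 is a single oocyte, and what the mice numbered 1 share was not tested.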

How the results depend on the processing

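Of the 16 calls, 9 held under all 15 alternatives (Trim10, Trim15, Trim23, Trim24, Trim29, Trim54, Trim60, Trim66 and Trim6), and none of the 16 changed direction. Leaving out 1 mouse gave 6 to 9 members higher and 4 to 11 lower, in the other family symbols 0 to 1 higher, in the E1 and E2 list 1 to 5 higher and 0 to 2 lower, and in the signalling list 1 to 3 lower. Without mouse 1 of both genotypes, the E1 and E2 list had 5 higher and 3 lower. DESeq2 gave that list 2 lower and the signalling list 15 higher. With the replicate block by mouse number, 10 members were higher and 13 lower: the 16 calls were kept and Trim27, Trim36, Trim37, Trim39, Trim47, Trim59 and Trim68 were added; the E1 and E2 list had 4 lower. The numbers were not taken to pair the mice: deviations of same-numbered mice correlated at 0.32, -0.0038, 0.25 and 0.18, and not every mouse correlated best with its own number. Counting a member as present only from 5 counts gave 39.2 members per floxed and 41.0 per knockout oocyte, and thinning gave 43.8 per knockout oocyte. With any count the means were 44.9 and 44.7, so the order of the genotypes turned at 5 counts. The part of oocyte depth in these shifts was not tested.

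Some members that were not called changed sign (log2 fold changes). Without mouse 1 of both genotypes these were Trim30a at -0.074, Trim43a at 0.088, Trim43c at 0.10 and Trim11 at 0.039. With equal weight of oocytes they were Trim71 at 0.013, Trim11 at 0.031, Trim43c at 0.10 and Trim67 at -0.075. With the replicate block Trim11 was at 0.0022, and without the oocytes numbered 8 Trim2 was at -0.30 and Trim43c at 0.026. Leaving out 1 mouse at a time gave ranges across 0 of -0.61 to 0.0092 for Trim62, -0.051 to 0.27 for Trim30a, -0.031 to 0.59 for Trim12c, -0.23 to 0.012 for Trim32, -0.71 to 1.92 for Trim7, -0.11 to 0.25 for Trim38, -0.23 to 0.050 for Trim71, -0.86 to 1.34 for Trim2, -0.33 to 0.26 for Trim11, -0.096 to 0.070 for Trim43c and -0.27 to 0.39 for Trim67. The cause was not tested. With 4 mice a group, 1.5-fold changes were mostly missed in simulated data, in which far fewer genes changed than were called here. A member without a call is not shown to be unchanged.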
